A study of Mus musculus with 768 samples.

Results

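Regulators of G protein signalling (RGS) were followed in single nuclei of the mouse striatum, through 7 genes chosen by symbol (Rgs2, Rgs4, Rgs7, Rgs8, Rgs9, Rgs14 and Rgs20) out of the 24489 genes counted. All 7 had a row in the table, and all 7 passed the minimum level of 5 CPM in every comparison made. Gene expression was measured by single-nucleus RNA sequencing in 768 wells, divided evenly between 2 genotypes. The first plate held striatal nuclei of Oprm1-Cre:H2BG mice, in which Cre is driven from the mu opioid receptor gene, and was meant to take in neurons of the patches, the receptor-rich islands of the striatum. The second held striatal nuclei of Slc32a1-Cre:H2BG mice, in which Cre is driven from the gene of the vesicular GABA transporter, and was meant to take in GABAergic neurons. All mice were untreated and of C57BL/6 background, so both groups carry a Cre and H2BG, and neither is a Cre-free control. Age, sex and number of animals are not given by the labels. Cre in both lines reaches more than 1 class of neuron, so nuclei were sorted into classes by their own markers.

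G protein-coupled receptors switch on the alpha subunit of a G protein, which stays active until it has hydrolysed its GTP. RGS proteins bind the active alpha subunit and speed that hydrolysis, which shortens the signal. In spiny projection neurons (SPNs), the GABAergic output neurons of the striatum, dopamine, adenosine, opioid and muscarinic receptors all signal through G proteins, and Rgs9 is known for its high level there.

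The members fall into 4 subfamilies. Rgs9 and Rgs7 belong to the R7 subfamily, whose proteins pair with the G protein beta subunit encoded by Gnb5. Rgs4, Rgs2 and Rgs8 are small proteins of the R4 subfamily, Rgs14 belongs to R12 and Rgs20 to RZ. In the mm10 gene models of GENCODE M21, 5 of the members lie on chromosome 1: Rgs2 at chr1:143999338-144004161, Rgs4 at chr1:169741477-169747642, Rgs7 at chr1:175059087-175492500 and Rgs20 at chr1:4909576-5070285, all on the minus strand, and Rgs8 at chr1:153653025-153700323 on the plus strand. Rgs9 lies at chr11:109225355-109298129 on the minus strand and Rgs14 at chr13:55369732-55384687 on the plus strand. Exons of Rgs20 overlap Atp6v1h and exons of Rgs8 overlap the antisense gene Gm29529. No source used here says whether counting used strand, so reads of these overlapping pairs cannot be told apart.

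RefSeq promoters (GRCm38.p6) were matched for Rgs2, Rgs4, Rgs7, Rgs8 and Rgs9. Shown here are the 250 bases before the start of Rgs9, the member found in nearly every SPN-like nucleus, of Rgs4, the member with the highest level per length, and of Rgs2, the member whose sum had the same direction between the plates in every cluster of D1-like nuclei. Each is printed 5′ to 3′ on the minus strand, with capitals on matches in either direction to TGACG, to GGGCGG or to TATAAA.
Rgs9, chr11:109298182-109298431: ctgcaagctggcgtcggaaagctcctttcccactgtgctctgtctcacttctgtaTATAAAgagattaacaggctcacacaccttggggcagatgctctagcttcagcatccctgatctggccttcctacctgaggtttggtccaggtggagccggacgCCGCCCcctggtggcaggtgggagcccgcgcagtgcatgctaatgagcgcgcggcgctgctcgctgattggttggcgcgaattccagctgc
Rgs4, chr1:169747643-169747892: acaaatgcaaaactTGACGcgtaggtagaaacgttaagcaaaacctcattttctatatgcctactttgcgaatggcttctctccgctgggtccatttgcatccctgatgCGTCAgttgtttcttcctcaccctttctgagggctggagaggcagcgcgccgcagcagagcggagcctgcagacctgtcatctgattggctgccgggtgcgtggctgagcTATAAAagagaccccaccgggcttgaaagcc
Rgs2, chr1:144004150-144004399: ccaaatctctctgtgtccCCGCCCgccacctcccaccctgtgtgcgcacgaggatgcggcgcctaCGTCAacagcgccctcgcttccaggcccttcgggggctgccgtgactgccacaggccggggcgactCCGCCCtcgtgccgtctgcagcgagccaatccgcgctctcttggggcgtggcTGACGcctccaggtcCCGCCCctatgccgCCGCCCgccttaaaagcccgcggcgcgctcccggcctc
Both Rgs9 and Rgs4 held 1 match to TATAAA, the letters of a TATA box, which 12.4% of the 32851 mouse promoters in the table held in their windows of the same length. The match lies close to the start of Rgs4 but in the far part of the Rgs9 window, so it is not read as a TATA box of Rgs9. They also held 4 matches each to CANNTG, the E box, which 66.2% of promoters held and which is not capitalised. The Rgs2 window was richer in G and C (72.4%, against 53.6% for Rgs4, 59.6% for Rgs9 and a median of 52.4% over all promoters). It held 4 matches to GGGCGG, the Sp1 box, found in 32.7% of promoters, and 2 to TGACG, the core of the cyclic AMP response element, found in 17.8%. The Rgs4 window also held 2 matches to TGACG, and none of the windows held the full element TGACGTCA, present in 1.55% of promoters. These matches are letters in a window and carry no information on binding.

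After filtering, 736 nuclei were kept (29 Oprm1-Cre and 3 Slc32a1-Cre wells fell out), with a median of 169398 reads on genes per Oprm1-Cre nucleus and 175337 per Slc32a1-Cre nucleus. They formed 8 clusters. By marker genes, 29 nuclei were interneuron-like (13 Oprm1-Cre and 16 Slc32a1-Cre), 664 were SPN-like and 43 stayed unnamed. Of the unnamed nuclei, 6 Oprm1-Cre and 12 Slc32a1-Cre ones lay in the interneuron-like cluster but missed the marker limit set for a single nucleus. No interneuron-like value below includes them. Of the SPN-like nuclei, 479 were D1-like, carrying markers of the direct pathway such as Drd1 and Tac1, and 290 of these were Oprm1-Cre nuclei. The D2-like nuclei, with markers of the indirect pathway such as Drd2, Adora2a and Penk, were 23 Oprm1-Cre and 140 Slc32a1-Cre ones, and 11 on each plate were undecided. The 7 D1 markers summed, among Oprm1-Cre nuclei, to 6226 CPM (counts per 1000000 reads on genes) in D1-like ones and 25.6 CPM in D2-like ones, and among Slc32a1-Cre nuclei to 5021 CPM and 124.5 CPM. Of the 29 interneuron-like nuclei, 3 on the Oprm1-Cre plate and 5 on the Slc32a1-Cre plate led with the Sst and Npy marker list. The Th and Trh list led in 10 and 6, and the Pvalb and Pthlh list in 0 and 5, while the cholinergic list led in 0 of these 29 nuclei. The Th and Trh list and the Pvalb and Pthlh list share Kit and Pthlh. Among Slc32a1-Cre interneuron-like nuclei Kit was the highest gene of both (1377 CPM), so these kinds are not cleanly separated. The plates also differed in sex-linked transcripts. Xist had 2.83 CPM on the Oprm1-Cre plate and 1888 CPM on the Slc32a1-Cre plate, and the Y-linked gene Eif2s3y had 226.03 CPM and 0 reads. Genotype, plate, animals and their sex cannot be told apart in any difference between the plates.

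With 1 plate per genotype there were no replicates and no test. Levels below are CPM of the reads summed over the nuclei of a class and plate, with an exact Poisson 95% interval in brackets. The labels mention no molecular identifiers, and reads from PCR are not independent molecules, so these intervals cover counting error only. The spread over nuclei was far wider than these intervals, so the lowest, median and highest nucleus are given for the members the results turn on. In such sums, fewer nuclei with a transcript and less of it per nucleus cannot be told apart, and shares of nuclei are therefore given too.

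Rgs9 was read in nearly every SPN-like nucleus. Among Oprm1-Cre nuclei its summed level was 98.8 CPM (87.5 to 111.2) in interneuron-like, 924 CPM (915 to 932) in D1-like and 1137 CPM (1104 to 1170) in D2-like ones. On the Slc32a1-Cre plate it was 23.7 CPM (18.8 to 29.5), 754 CPM (745 to 763) and 775 CPM (764 to 785). The order over the 6 sums placed D2-like above D1-like above interneuron-like nuclei within each plate, and no 2 neighbouring intervals overlapped. Single D1-like nuclei ran from 0 to 3728 CPM around a median of 906 CPM on the Oprm1-Cre plate, and from 0 to 3883 CPM around 652 CPM on the Slc32a1-Cre plate. D2-like nuclei ran from 102.98 to 3269 CPM with a median of 987 CPM on the Oprm1-Cre plate, and from 0 to 2969 CPM with a median of 715 CPM on the Slc32a1-Cre plate. The D1-like and D2-like nuclei thus overlapped almost throughout, while the median interneuron-like nucleus had no Rgs9 read in either plate.

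Rgs7, the other R7 member, was patchy. Among Oprm1-Cre nuclei its sums were 89.5 CPM (78.7 to 101.3) in interneuron-like, 76.8 CPM (74.5 to 79.2) in D1-like and 37.3 CPM (31.6 to 43.8) in D2-like ones. The Slc32a1-Cre plate gave 44.1 CPM (37.3 to 51.8), 67.04 CPM (64.3 to 69.8) and 80.4 CPM (77.1 to 83.8). The median nucleus was at 0 in every class and plate, and single nuclei carried much of a sum: on the Oprm1-Cre plate, 1 nucleus held 79.5% of the Rgs7 reads of the interneuron-like nuclei and another held 74% of those of the D2-like nuclei. In order of level, the top 3 sums (interneuron-like of the Oprm1-Cre plate, D2-like of the Slc32a1-Cre plate and D1-like of the Oprm1-Cre plate) had overlapping intervals with their neighbours, and so did the lowest 2.

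**Figure D1:**
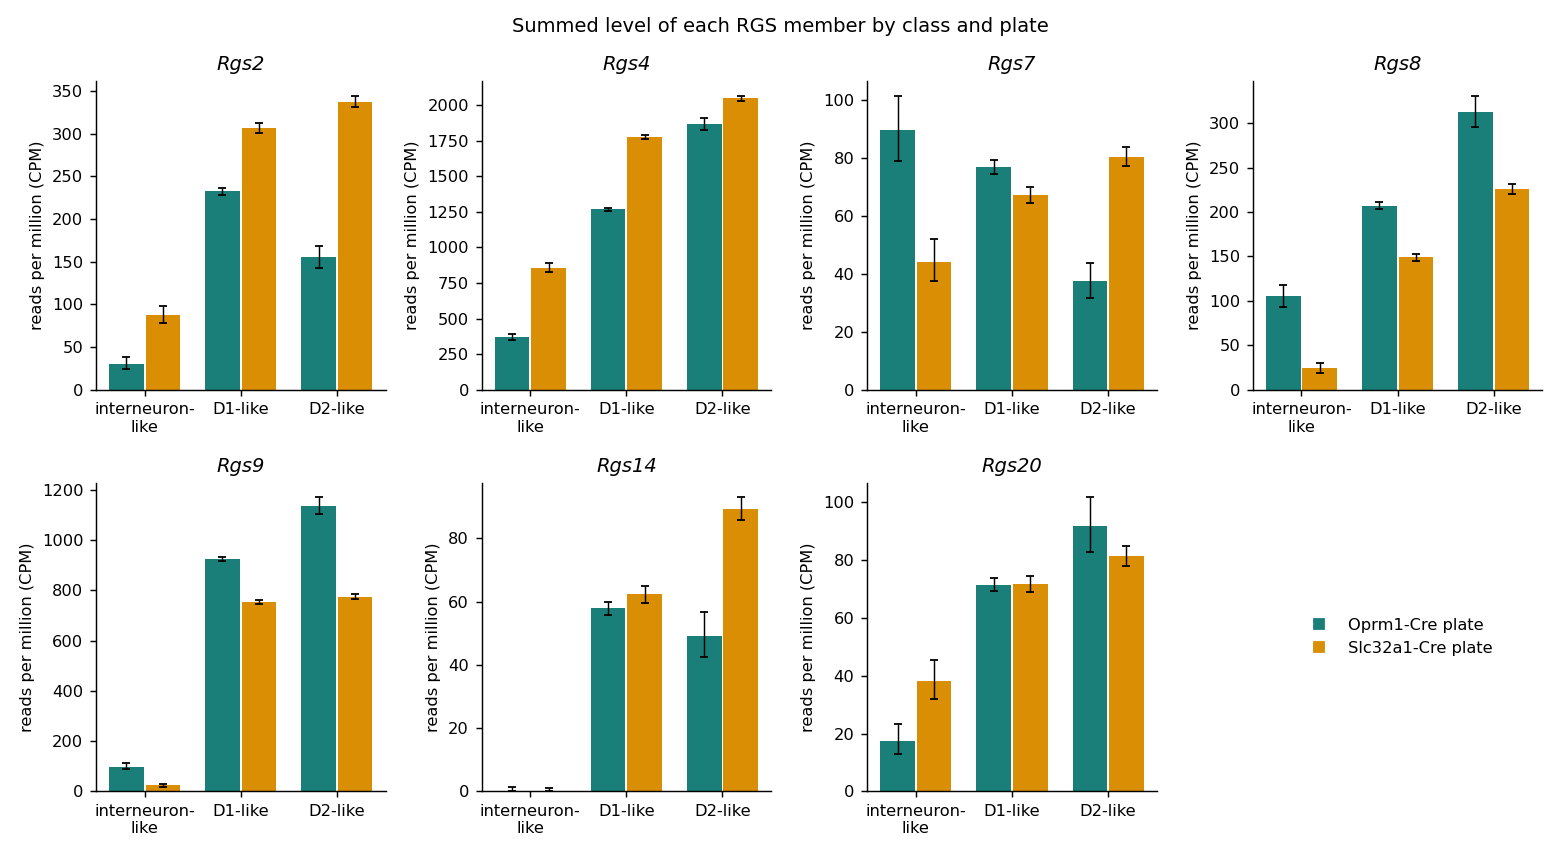
Summed level in CPM (vertical axis, linear from 0, a scale of its own for each gene) of the 7 RGS members in interneuron-like, D1-like and D2-like nuclei, Oprm1-Cre plate left and Slc32a1-Cre plate right in each pair; error bars are exact Poisson 95% intervals. Rgs9 reached 924 and 754 CPM in D1-like nuclei against 98.8 and 23.7 CPM in interneuron-like nuclei, and Rgs14 had 0 reads in interneuron-like nuclei of both plates.

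Rgs4, which acts on alpha subunits of the Gi, Go and Gq types, was read in most nuclei of all 3 classes. Among Oprm1-Cre nuclei it reached 370.9 CPM (348.6 to 394) in interneuron-like, 1267 CPM (1257 to 1276) in D1-like and 1867 CPM (1825 to 1910) in D2-like ones. On the Slc32a1-Cre plate it reached 857 CPM (826 to 889), 1775 CPM (1761 to 1789) and 2049 CPM (2032 to 2065). D2-like sums of both plates stood above both D1-like sums, and these above both interneuron-like sums, with no overlap between neighbouring intervals. The median D1-like nucleus had 808 CPM (range 0 to 6404) on the Oprm1-Cre plate and 1420 CPM (0 to 7044) on the Slc32a1-Cre plate. The median D2-like nucleus had 1361 CPM (0 to 4764) and 1604 CPM (0 to 7617). No other member was read in most interneuron-like nuclei, where the median Rgs4 level was 237.04 CPM (0 to 1505) on the Oprm1-Cre plate and 809 CPM (0 to 2026) on the Slc32a1-Cre plate.

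Rgs2 prefers Gq, and its transcript is known to be induced quickly by stimulation. Among Oprm1-Cre nuclei its sums were 30.6 CPM (24.4 to 37.8) in interneuron-like, 232.1 CPM (228.1 to 236.3) in D1-like and 155.1 CPM (143.1 to 167.7) in D2-like ones. The Slc32a1-Cre plate gave 87.9 CPM (78.2 to 98.5), 306.2 CPM (300.4 to 312.1) and 337.4 CPM (330.6 to 344.3). Each of the 3 classes was lower on the Oprm1-Cre plate, and no neighbouring intervals overlapped. The distribution was skewed, with a median of 30.6 CPM and a maximum of 1669 CPM in Oprm1-Cre D1-like nuclei, and a median of 73.7 CPM and a maximum of 2353 CPM in the Slc32a1-Cre ones. Rgs8, a regulator of Gi and Go described in rat brain, had 105.3 CPM (93.6 to 118.1) in interneuron-like, 207.1 CPM (203.2 to 210.9) in D1-like and 313.1 CPM (296.03 to 330.9) in the D2-like nuclei of Oprm1-Cre mice. In the same order, Rgs8 had 24.3 CPM (19.3 to 30.1), 149.1 CPM (144.997 to 153.2) and 225.4 CPM (220 to 231.01) on the Slc32a1-Cre plate. Within each plate D2-like nuclei led, then D1-like, then interneuron-like ones, and no neighbouring intervals overlapped. In the median nucleus Rgs8 stood at 52.5 CPM in Oprm1-Cre D1-like and 149.3 CPM in Oprm1-Cre D2-like nuclei, and at 0 and 29.3 CPM in the Slc32a1-Cre ones.

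Rgs14, a scaffold that also binds inactive Gi subunits, was read in D1-like and D2-like nuclei but in no interneuron-like nucleus. It had 57.9 CPM (55.9 to 60.02) in Oprm1-Cre D1-like and 49.3 CPM (42.7 to 56.6) in Oprm1-Cre D2-like nuclei, and 62.3 CPM (59.7 to 65.04) and 89.4 CPM (85.9 to 92.98) in the Slc32a1-Cre ones. Interneuron-like nuclei held 0 Rgs14 reads of 2782258 and 0 of 3377561, where 3 reads would be 1.08 and 0.888 CPM. The D2-like sum of the Slc32a1-Cre plate was the highest, and the other 3 SPN sums overlapped with their neighbours. Rgs20, known for its action on Gz, had 17.6 CPM (13.03 to 23.3) in interneuron-like, 71.5 CPM (69.3 to 73.8) in D1-like and 91.8 CPM (82.7 to 101.7) in the D2-like nuclei of Oprm1-Cre mice. On the Slc32a1-Cre plate it had 38.2 CPM (31.9 to 45.4), 71.8 CPM (68.96 to 74.7) and 81.3 CPM (78.01 to 84.7). The D2-like sums of both plates overlapped, as did the D1-like sums of both plates.

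Per kilobase of exon, which lets members be set against each other, Rgs4 led in D1-like nuclei with 409 CPM per kilobase on the Oprm1-Cre plate and 573 on the Slc32a1-Cre plate. Rgs9 followed with 144.5 and 118.02, and Rgs2 with 64.004 and 84.4. The other 4 members lay between 12.8 and 21.5 CPM per kilobase on the Oprm1-Cre plate and between 11.1 and 16.9 on the Slc32a1-Cre plate. The same 3 members led in D2-like nuclei, with 603 and 661 for Rgs4, 177.9 and 121.2 for Rgs9, and 42.7 and 93.03 for Rgs2. Lengths were those of all annotated exons, and reads from introns, which nuclei also hold, were not separated.

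**Figure D2:**
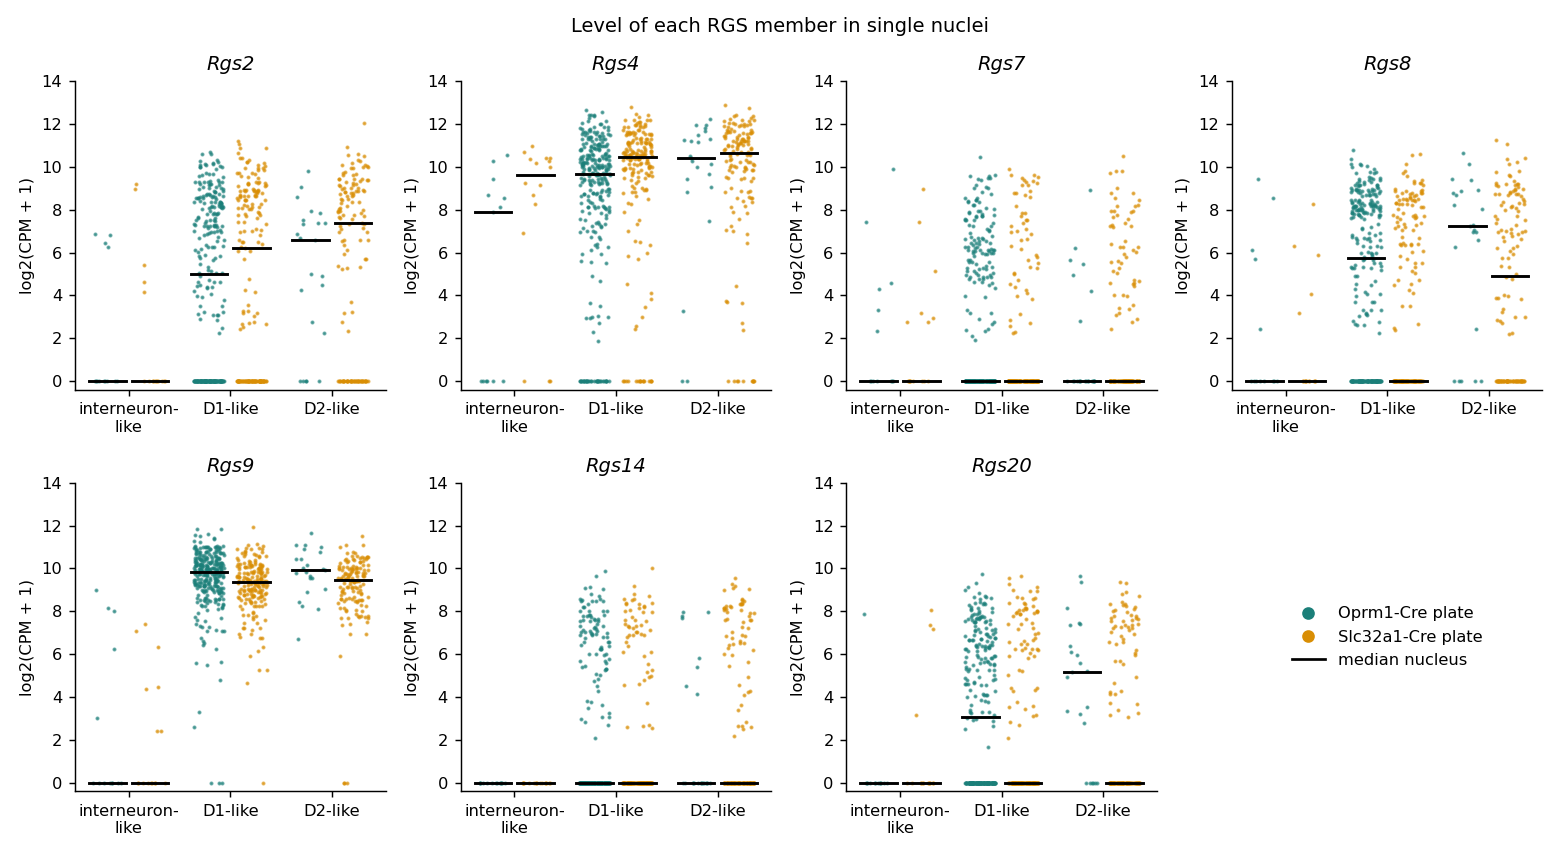
Level of each RGS member in single nuclei as log2(CPM + 1) (vertical axis), by class, with the Oprm1-Cre plate left and the Slc32a1-Cre plate right; each point is a nucleus and black lines are medians. Rgs9 points of D1-like and D2-like nuclei form a single band, while Rgs7 and Rgs14 have their median at 0 in every class.

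Shares of nuclei with a read, taken after each nucleus was thinned to 50000 reads, separated Rgs9 and Rgs4 from the rest. Rgs9 had a read in 98.3% (exact Clopper-Pearson 95% interval 95.995 to 99.4) of Oprm1-Cre D1-like nuclei and 98.9% (96.2 to 99.9) of Slc32a1-Cre ones. In D2-like nuclei it had a read in 23 of 23 (85.2 to 100%) and 97.9% (93.9 to 99.6). For interneuron-like nuclei the Rgs9 share was 30.8% (9.09 to 61.4) on the Oprm1-Cre plate and 37.5% (15.2 to 64.6) on the Slc32a1-Cre plate. Their median depths were 219369 and 209374 reads before thinning. Rgs4 had a read in 85.4% and 89.4% of D1-like, 86.96% and 90% of D2-like, and 53.8% and 81.2% of interneuron-like nuclei of the Oprm1-Cre and the Slc32a1-Cre plate. Rgs2 was read in 53.1% and 55.9% of D1-like and in 69.6% and 65% of D2-like nuclei, and Rgs8 in 57.99% and 44.7% of D1-like and 78.3% and 54.3% of D2-like nuclei. In D1-like nuclei Rgs20 was read in 45.8% of Oprm1-Cre and 32.4% of Slc32a1-Cre nuclei, Rgs7 in 39.2% and 23.9%, and Rgs14 in 29.2% and 26.6%. Without thinning the shares of D1-like nuclei were 98.97% and 99.5% for Rgs9 and 43.1% and 28.04% for Rgs7.

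**Figure D3:**
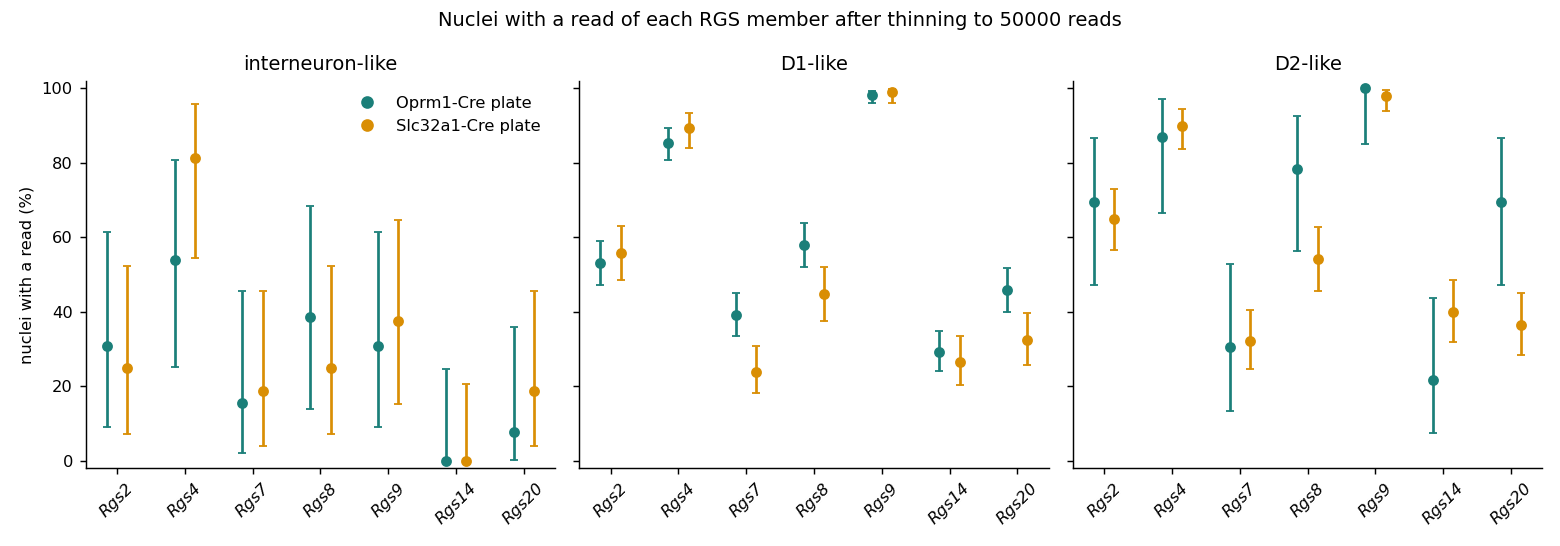
Percent of nuclei with a read of each RGS member (vertical axis) after thinning to 50000 reads, in interneuron-like, D1-like and D2-like nuclei, Oprm1-Cre plate left and Slc32a1-Cre plate right; bars are exact Clopper-Pearson 95% intervals. Rgs9 lies above 97% in D1-like and D2-like nuclei of both plates, and the wide intervals of the interneuron-like panel rest on 13 and 16 nuclei.

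Most SPN-like nuclei held several members at this depth. The median D1-like nucleus had reads of 4 of the 7 members in both plates, and so did the median D2-like nucleus. All 7 members were found together in 12 Oprm1-Cre D1-like nuclei (4.17%) and in 2 Slc32a1-Cre ones (1.06%), and in 0 of 23 Oprm1-Cre and 6 Slc32a1-Cre D2-like nuclei (4.29%). Rgs4 and Rgs9 shared 84.7% of D1-like nuclei on the Oprm1-Cre plate and 88.3% on the Slc32a1-Cre plate. The median interneuron-like nucleus had 1 member on the Oprm1-Cre plate and 2 on the Slc32a1-Cre plate.

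The comparison of interneuron-like with SPN-like nuclei asked which members belong to the output neurons. Counting a member as called when its log2 ratio, with 5 CPM added to both levels, was beyond 1 in size (2-fold), 5 of the 7 members were lower in interneuron-like nuclei on the Oprm1-Cre plate and 5 on the Slc32a1-Cre plate. Rgs2, Rgs4, Rgs9 and Rgs14 were called in both plates, Rgs20 on the Oprm1-Cre plate and Rgs8 on the Slc32a1-Cre plate. No member was higher. Of all genes measured, 48.7% were called on the Oprm1-Cre plate (19.2% higher and 29.4% lower) and 42.4% on the Slc32a1-Cre plate (17.8% higher and 24.5% lower). The median log2 ratio of the members was -1.78 and -1.80 against -0.14 and -0.07 for all genes.

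Rgs9 and Rgs14 differed most. The log2 ratio of Rgs9 was -3.18 on the Oprm1-Cre plate and -4.74 on the Slc32a1-Cre plate, and only 2.73% and 0.313% of measured genes had a lower ratio. Rgs9 was also the single member whose middle 50% of nuclei did not overlap between the classes: the upper quartile of interneuron-like nuclei was 75.3 and 20.4 CPM, against a lower quartile of SPN-like nuclei of 528 and 392 CPM. Of all genes measured, 2.51% and 1.75% were so separated. Of the other members, all but Rgs4 had a lower quartile of 0 in both classes of both plates, which makes an overlap certain. Counted in reads, Rgs14 was at least 54.4-fold lower in Oprm1-Cre interneuron-like nuclei and at least 84.1-fold lower in the Slc32a1-Cre ones. The floor was 3 reads per sum. This bound takes reads as independent, which reads of 1 nucleus are not, so it does not hold for nuclei. No interneuron-like nucleus had an Rgs14 read, which at 13 and 16 nuclei allows shares of up to 24.7% and 20.6%. After thinning, the shares of SPN-like nuclei with a read were 29.6% (24.7 to 34.9) and 32.2% (27.2 to 37.4). Rgs2 had log2 ratios of -2.70 and -1.80, and Rgs4 of -1.78 and -1.13. Rgs20 stood at -1.75 and -0.90 and Rgs8 at -0.98 and -2.67, so each passed the limit in 1 plate. Rgs7 stood at 0.26 on the Oprm1-Cre plate and -0.64 on the Slc32a1-Cre plate. Without the single highest nucleus of each class, the Rgs7 ratio was -1.65 and -1.74, and all 7 members were then lower past 2-fold in both plates. Of all genes measured, 47.9% and 40.4% were lower with those nuclei left out.

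SPN transcripts were also read in interneuron-like nuclei. The 10 SPN markers stood at 0.663 to 19.3% (median 8.83%) of their SPN-like level in Oprm1-Cre interneuron-like nuclei and at 0.440 to 33.1% (median 8.29%) in the Slc32a1-Cre ones, and none was at 0. Rgs9, at 10.6% and 3.11% of its SPN-like level, lay within that range. Rgs4, at 28.8% and 45.7%, lay above all 10 markers in both plates. Rgs2 stood at 13.6% and 27.6%, also within the range, and Rgs20, at 24.8% and 50.6%, above it, although 1 nucleus held all 49 of its reads on the Oprm1-Cre plate. Rgs8 stood at 49.6% and 13.3%, above the range and within it, and Rgs7 at 121.007% and 61.7%, above it in both plates. In these sums 1 nucleus held 59.7% and 70.7% of the Rgs8 reads and 1 held 79.5% and 64.4% of the Rgs7 reads. On the Slc32a1-Cre plate 1 nucleus held 54.2% of the Rgs2 reads and 1 held 52.7% of the Rgs20 reads. The range is that of these 10 markers only, and the source of the interneuron-like reads was not tested for any member.

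By kind of interneuron, Rgs4 was at 0 in all 3 Sst and Npy nuclei of the Oprm1-Cre plate, while the 5 of the Slc32a1-Cre plate had a median of 613 CPM (0 to 1626). In Th and Trh nuclei the Rgs4 median was 323.4 CPM (0 to 1505) over 10 Oprm1-Cre nuclei and 901 CPM (0 to 2026) over 6 Slc32a1-Cre nuclei. The 5 Pvalb and Pthlh nuclei, all of the Slc32a1-Cre plate, had a median of 1004 CPM (0 to 1365). Rgs4 was thus present in nuclei of all 3 kinds, and the nuclei of each kind overlapped with those of the others. Most Rgs7 reads came from Th and Trh nuclei, with 115.4 CPM over the 10 Oprm1-Cre nuclei and 101.97 CPM over the 6 Slc32a1-Cre nuclei. The sums of the other kinds held at most 8.38 CPM. However, 1 Th and Trh nucleus held 79.5% of all interneuron-like Rgs7 reads on the Oprm1-Cre plate, and 1 held 64.4% on the Slc32a1-Cre plate. Of the Th and Trh nuclei, 4 of 10 and 3 of 6 had any read. So did 3 of 8 Sst and Npy nuclei and 3 of 5 Pvalb and Pthlh nuclei. The median was 0 and 2.90 CPM in Th and Trh nuclei and 5.83 CPM in Pvalb and Pthlh nuclei, so no preference for a kind is read from these sums.

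**Figure D4:**
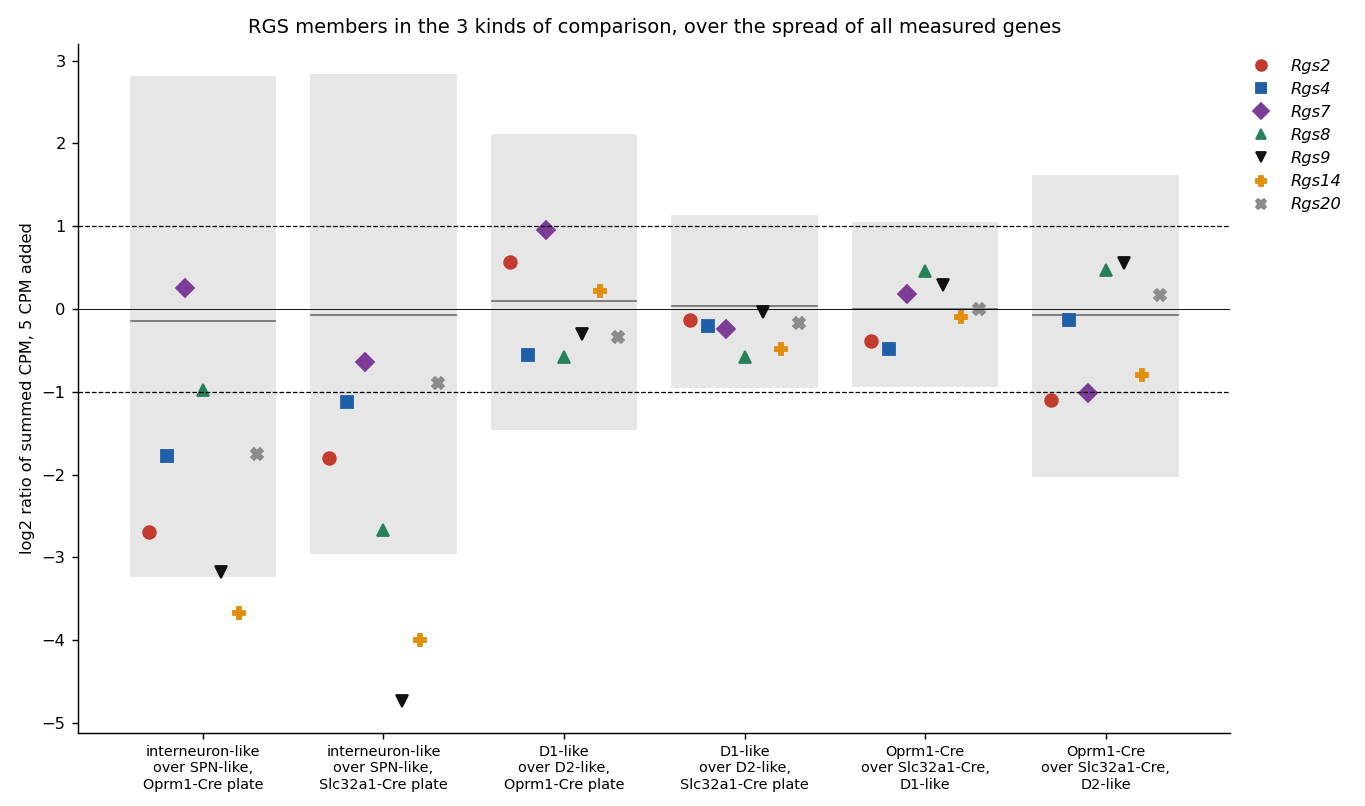
Log2 ratio of summed CPM, with 5 CPM added (vertical axis), of the 7 RGS members in 6 comparisons; grey boxes hold the central 95% of all measured genes with their median as a grey line, and dashed lines mark 2-fold. Rgs9 and Rgs14 lie lowest among the members in interneuron-like over SPN-like nuclei, and no member passes 2-fold in D1-like over D2-like nuclei.

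Between D1-like and D2-like nuclei no member was called in either direction in either plate. Over all genes measured, 23.9% were called on the Oprm1-Cre plate (17.1% higher and 6.81% lower), where the D2-like sum held 23 nuclei, and 5.94% on the Slc32a1-Cre plate (3.76% higher and 2.18% lower). Within each plate the middle 50% of D1-like and of D2-like nuclei overlapped for all 7 members, as they did for all but 0.145% of measured genes on the Oprm1-Cre plate and 0.101% on the Slc32a1-Cre plate. Rgs8 had the same ratio in both plates, -0.59 on the Oprm1-Cre plate and -0.58 on the Slc32a1-Cre plate on the log2 scale, with 207.1 CPM in D1-like against 313.1 CPM in D2-like nuclei and 149.1 CPM against 225.4 CPM. As a plain ratio of levels this was 0.661 (counting interval 0.624 to 0.702) and 0.661 (0.637 to 0.686). Without the highest nucleus of each class the log2 ratios of Rgs8 were -0.33 and -0.57, and without cluster 0, a cluster described below, they were -0.37 and -0.63.

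Rgs4, Rgs9 and Rgs20 were lower in D1-like nuclei of both plates by smaller amounts. The log2 ratio of Rgs4 was -0.56 on the Oprm1-Cre plate and -0.21 on the Slc32a1-Cre plate, that of Rgs9 was -0.30 and -0.04, and that of Rgs20 was -0.34 and -0.17. Rgs2, Rgs7 and Rgs14 went opposite ways in the plates. Rgs2 stood at 0.57 and -0.14, Rgs7 at 0.95 and -0.24 and Rgs14 at 0.21 and -0.49. For Rgs2 the sums and the single nuclei disagreed on the Oprm1-Cre plate, where the D1-like sum was higher but the median D1-like nucleus was lower, at 30.6 CPM against 94.9 CPM in D2-like nuclei. The median D1-like nucleus was lower on the Slc32a1-Cre plate too, at 73.7 CPM against 163.5 CPM. For Rgs7 on the Oprm1-Cre plate, 1 D2-like nucleus held 74% of the reads, and the ratio without the highest nucleus of each class was 2.37. For Rgs2 the Oprm1-Cre ratio was 1.01 without the highest nucleus and 0.99 without cluster 0. Without the highest nucleus 31.1% of all genes measured passed 2-fold in that direction.

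Between the plates, D1-like nuclei were compared by cluster first, since they came from different clusters: 55.5% of the Oprm1-Cre ones and 10.1% of the Slc32a1-Cre ones lay in cluster 0, and 4.83% and 53.4% in cluster 2. RGS genes were left out of the genes that formed the clusters. Cluster 0 had among its 10 leading genes the Y-linked Ddx3y, which had 0 Slc32a1-Cre reads, and Sema5b, a gene of the patch list below. Vcan, a marker of oligodendrocyte precursors, was another, while the other precursor markers Pdgfra, Cspg4, Olig1 and Neu4 had 0 to 4.24 CPM there. No SPN marker was among the 10, but clusters 2, 3, 4 and 5, SPN-like as cluster 0 was, had none among theirs either. The summed level of Rgs2 was lower on the Oprm1-Cre plate in all 5 D1-like clusters, with log2 ratios of -0.70 to -0.24. Its sum was 146.95 CPM in Oprm1-Cre against 240.9 CPM in Slc32a1-Cre nuclei of cluster 0, and 158.2 CPM against 260.9 CPM in cluster 2. It stood at 361.3 against 479 CPM in cluster 3, 216.4 against 256.6 CPM in cluster 4 and 338.4 against 501 CPM in cluster 5. Some of these sums rest on few nuclei, with 14 Oprm1-Cre nuclei in cluster 2 and 19 and 9 Slc32a1-Cre nuclei in clusters 0 and 3. The median nucleus did not have this direction in 2 of the 5 clusters: it was at 28.65 CPM on the Oprm1-Cre plate against 0 on the Slc32a1-Cre plate in cluster 2, and at 0 on both in cluster 0. The Oprm1-Cre levels of clusters 0 and 2 lay below those of clusters 3, 4 and 5, and so did the Slc32a1-Cre level of cluster 0 but not that of cluster 2, which was above cluster 4.

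Rgs4 had no common direction, being lower on the Oprm1-Cre plate in clusters 0, 2 and 5 and higher in clusters 3 and 4, with log2 ratios of -0.77 to 0.53. Rgs9 was higher in 4 of 5 clusters, with ratios up to 0.52, and stood at -0.09 in cluster 0. The clusters themselves differed more than the plates did for Rgs4: cluster 3 had 581 CPM on the Oprm1-Cre plate and 400 CPM on the Slc32a1-Cre plate, against 2540 and 2097 CPM in cluster 4 and 2372 and 2632 CPM in cluster 5. Cluster 3, led by Dlk1, Pde1a and Col9a3, was also the lowest for Rgs9 in both plates, with 557 and 426 CPM. Its Rgs14 level of 112.8 CPM in 65 nuclei of the Oprm1-Cre plate was the highest of the 5 clusters there, but the 9 nuclei of the Slc32a1-Cre plate had 48.1 CPM. Rgs8 differed most in the same cluster, with 229.1 CPM on the Oprm1-Cre plate and 4.68 CPM on the Slc32a1-Cre plate, where 9 nuclei stand behind the value. Rgs7 had 68.97 CPM and 31.4 CPM there.

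**Figure D5:**
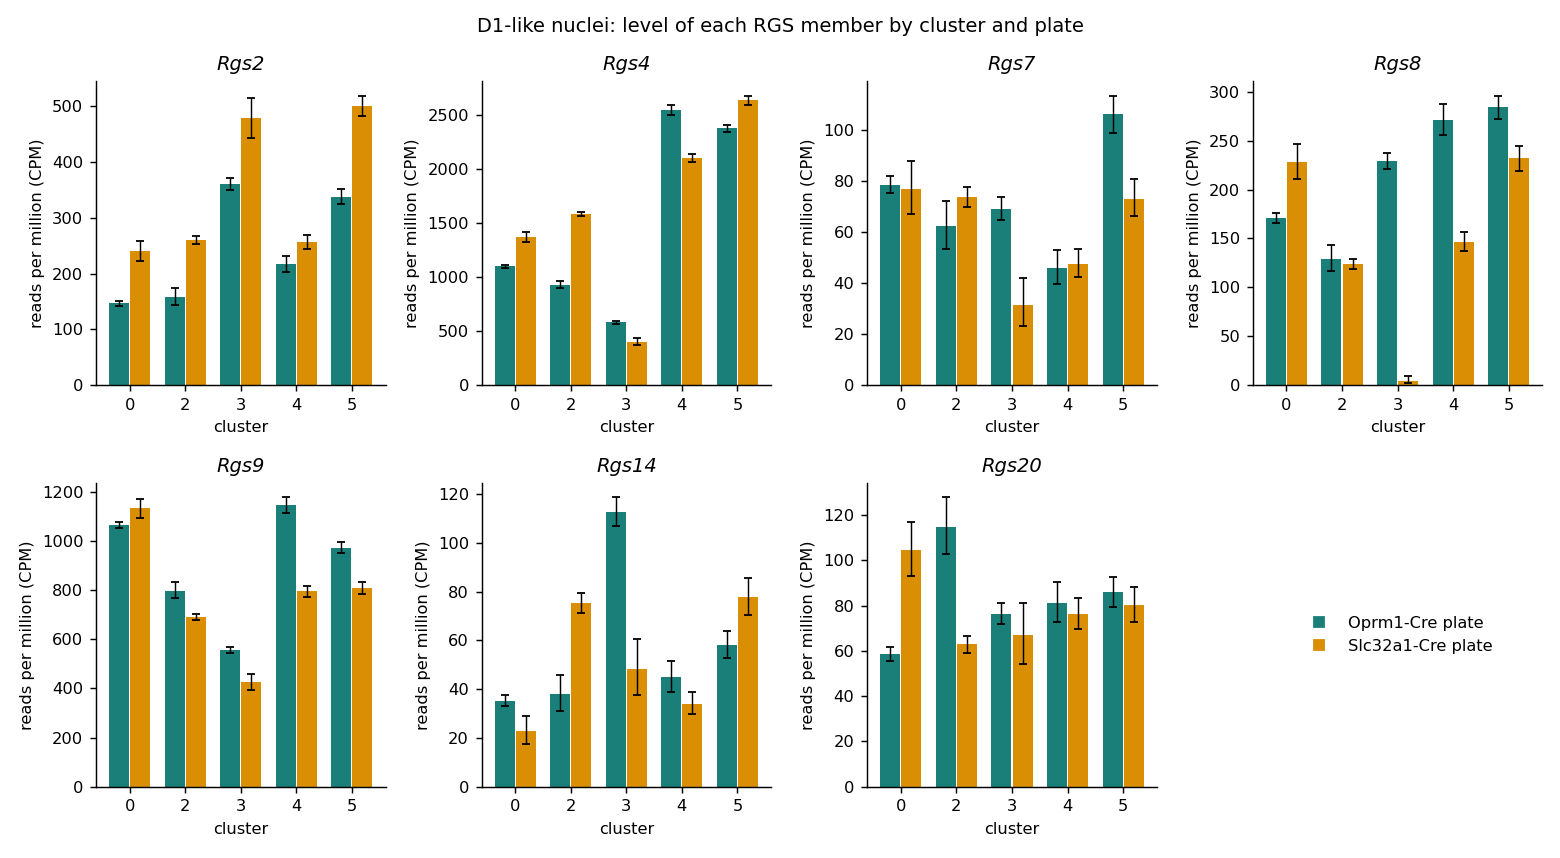
Summed level in CPM (vertical axis, linear from 0) of each RGS member in D1-like nuclei of clusters 0, 2, 3, 4 and 5 (horizontal axis), Oprm1-Cre plate left and Slc32a1-Cre plate right; bars show exact Poisson 95% intervals. The Rgs2 sum is lower on the Oprm1-Cre plate in each of the 5 clusters, and cluster 3 has the lowest Rgs4 and Rgs9 in both plates.

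Summed over all D1-like nuclei, no member was called between the plates, against 4.85% of all genes measured (2.93% higher and 1.93% lower). The log2 ratio of the Oprm1-Cre over the Slc32a1-Cre plate was -0.39 for Rgs2, -0.49 for Rgs4, 0.46 for Rgs8, 0.29 for Rgs9 and 0.18 for Rgs7, and lay at -0.10 for Rgs14 and 0.00 for Rgs20. Without cluster 0 that of Rgs2 was 0.00, although the ratio was below 0 in each remaining cluster, that of Rgs4 -0.35 and that of Rgs8 0.75. Past 2-fold over all D1-like nuclei, cluster 0 included, 6 of the 9 measured genes of a patch list of 10 were higher and 4 of 7 matrix genes lower on the Oprm1-Cre plate. Oprm1, the gene from which Cre is driven on that plate, is among the 6. In D2-like nuclei 2 members were lower on the Oprm1-Cre plate, Rgs2 at -1.10 (155.1 and 337.4 CPM) and Rgs7 at -1.01 (37.3 and 80.4 CPM), against 15.2% of all genes measured that were lower and 9.09% that were higher (24.3% in all). These calls rest on 23 Oprm1-Cre nuclei, and the median Rgs7 nucleus was at 0 in both plates. The Rgs7 ratio was -2.31 without the highest nucleus of each plate, but it no longer passed 2-fold with wells of 100000 or more reads (-0.98), with median-of-ratios scaling (-0.96) or with SPN nuclei that carry other markers kept (-0.98). Rgs2 stood at -1.46 without the highest nucleus. Rgs14 stood at -0.80 there, and Rgs8 and Rgs9 at 0.47 and 0.55.

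Patch genes and matrix genes, the 2 lists that mark the compartments of the striatum, gave each D1-like and D2-like nucleus a score of patch minus matrix. Spearman's rho of the members with that score lay between -0.18 and 0.08 over the 479 D1-like nuclei, each plate taken alone. Over D2-like nuclei it lay between -0.40 (Rgs14) and 0.31 (Rgs20) in 23 Oprm1-Cre ones. In 140 Slc32a1-Cre ones it lay between -0.22 (Rgs14) and 0.02 (Rgs2). In 4 groups of D1-like nuclei of nearly the same size, ordered by the score, lowest first, the Rgs4 sums were 1651, 1323, 1227 and 891 CPM on the Oprm1-Cre plate, and 1847, 1824, 1757 and 1656 CPM on the Slc32a1-Cre plate. The median nucleus did not fall steadily with them. In the same order it had 836, 828, 891 and 693 CPM of Rgs4 on the Oprm1-Cre plate, and 1492, 1320, 1517 and 1307 CPM on the Slc32a1-Cre plate. The Rgs9 sums stayed between 872 and 965 CPM on the Oprm1-Cre plate and between 677 and 839 CPM on the Slc32a1-Cre plate. Rgs2, set against a score of immediate early genes such as Fos and Egr1, had a rho of 0.31 and 0.21 in D1-like nuclei and 0.08 and 0.39 in D2-like nuclei of the Oprm1-Cre and the Slc32a1-Cre plate. Its rho with the number of reads per nucleus was 0.28 and 0.15 in D1-like nuclei, and after thinning to 50000 reads the rho with the score was 0.25 and 0.19. In D2-like nuclei the rho with reads was 0.14 and 0.04, and after thinning the rho with the score was 0.06 and 0.40. The points share a plate and differ in depth, the counts are sparse, and no relation is read from these values.

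The genes most like each member were taken as those with the highest Pearson r of log2(CPM + 1) over all kept nuclei, in the plate where it was smaller, among 9072 genes. For Rgs9 these were Pde10a, a phosphodiesterase of SPNs (0.62), Scn4b, a sodium channel subunit (0.61), and Atp2b1, a calcium pump (0.55), the first pair being SPN markers used here. Rgs4 was most like Pcp4 (0.33), Ckb (0.32) and Hpca (0.30). All other members had a top value below 0.22: Egr4 and Pde1b for Rgs2, Ppp3ca, Nrgn and Pcp4l1 for Rgs8, Cadm1, Calb1 and Hpcal4 for Rgs14, Hpca, Camkk2 and Ppp1r1b for Rgs20, and Pde1b, Zbtb7a and Prkrir for Rgs7. The nuclei share plates, classes and depth, so these values describe likeness within these libraries. Between members, rho after thinning was 0.28 for Rgs4 with Rgs9 in 23 Oprm1-Cre D2-like nuclei and 0.32 in 140 Slc32a1-Cre ones, and 0.10 and 0.11 in the D1-like nuclei. Other pairs had larger values in those 23 nuclei, such as Rgs2 with Rgs7 at 0.62 and Rgs2 with Rgs4 at 0.34. In the 140 Slc32a1-Cre D2-like nuclei these pairs stood at 0.11 and -0.04.

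Of 14 other RGS genes, 5 passed 5 CPM (Rgs10, Rgs11, Rgs12, Rgs17 and Rgs19). Rgs11, the other R7 gene measured, had 327.1 CPM in D1-like and 195.6 CPM in the D2-like nuclei of Oprm1-Cre mice and 275.1 and 255.6 CPM in the Slc32a1-Cre ones. Rgs17, of the RZ subfamily, had 283.7 and 124.7 CPM on the Oprm1-Cre plate, where it was called higher in D1-like nuclei (log2 ratio 1.15), but 146.9 and 131.6 CPM on the Slc32a1-Cre plate. In interneuron-like over SPN-like nuclei Rgs11 was lower in both plates (-1.10 and -1.27). Rgs17 was lower on the Oprm1-Cre plate (-2.32) and higher on the Slc32a1-Cre plate (1.13), Rgs12 lower on the Oprm1-Cre plate (-1.52) and Rgs19 higher on the Slc32a1-Cre plate (1.36). Of the 5, 3 were lower on the Oprm1-Cre plate, against 29.4% of all genes measured, and on the Slc32a1-Cre plate 1 was lower and 2 were higher, against 24.5% and 17.8% of all genes.

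Among 5 partners of the R7 proteins, Gnb5, Rgs7bp and Gpr158 were measured. Gnb5, the obligate beta subunit of R7 complexes, was lower in interneuron-like nuclei of both plates, with 145.9 against 459 CPM on the Oprm1-Cre plate and 164.9 against 541 CPM on the Slc32a1-Cre plate. Rgs7bp, the membrane anchor of these complexes, had 126.9 against 389 CPM and 221.5 against 446 CPM, and was called on the Oprm1-Cre plate. Gpr158, an orphan receptor that binds Rgs7, was called on the Slc32a1-Cre plate, with 96.2 against 398 CPM, and had 242.97 against 403 CPM on the Oprm1-Cre plate. Thus 2 of 3 partners were lower in interneuron-like nuclei of each plate, against 29.4% and 24.5% of all genes measured. In D1-like over D2-like nuclei and between the plates 0 of 3 partners were called. For D1-like over D2-like nuclei, 23.9% of all genes were called on the Oprm1-Cre plate and 5.94% on the Slc32a1-Cre plate. Between the plates the share was 4.85% for the D1-like sums and 24.3% for the D2-like sums. A count of 0 among 3 genes does not set the partners apart from other genes.

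The alpha subunits, the substrates of the RGS proteins, differed by class in a pair of stimulatory genes. Gnal, which encodes Golf, had 168.6 CPM in interneuron-like against 1254 CPM in SPN-like nuclei on the Oprm1-Cre plate and 107.5 against 1148 CPM on the Slc32a1-Cre plate. Gnas, which encodes Gs, had 800.1 against 35.2 CPM and 1661 against 77.5 CPM, so the 2 genes ran in opposite directions in both plates. Gnas was also lower in D1-like than in D2-like nuclei, with 25.2 against 140 CPM on the Oprm1-Cre plate and 21.3 against 145.7 CPM on the Slc32a1-Cre plate. Exons of Gnas overlap Gm20721 and the antisense gene Nespas. Exons of Gnal overlap Mppe1, those of Gnaz Rsph14, of Gna12 Amz1, of Gna13 Gm11696 and of Gnao1 4930488L21Rik. Among the other RGS genes and partners, exons of Rgs11 overlap Arhgdig, those of Rgs12 Gm43791, of Gpr158 Gm13327 and of Gnb5 Gm19531 and Gm48677. Reads of these overlapping genes cannot be told apart either. Of the 11 to 12 alpha subunits measured, the Gi and Go genes Gnai1 and Gnao1 were called in no comparison. Other calls came in 1 plate or at low levels: Gnai2 higher (2.86) and Gnaq lower (-1.53) in Oprm1-Cre interneuron-like nuclei, and Gnai3 (-2.31) and Gna13 (0 reads against 24.6 CPM) lower in the Slc32a1-Cre ones. Gnaz, which encodes Gz, had 41.6 against 8.21 CPM in D1-like against D2-like nuclei of Oprm1-Cre mice and 34.4 against 22.6 CPM on the Slc32a1-Cre plate, and was lower on the Oprm1-Cre plate in D2-like nuclei (-1.06). Gna12 and Gna14 passed the limit in 4 and 3 comparisons at levels of 18.4 CPM or less.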

How the data were processed

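Single nuclei from 768 wells were deposited by the authors as whole-number read counts per gene and well, in 1 joint table with no normalization. Per the submitters' processing notes, mm10 was the build, and both Seurat and SAMtools are listed. Aligner, counter, annotation and number of animals: not given in the sources used here. The labels' protocols describe a bulk RNA kit. The Slc32a1-Cre descriptions give the plate number of the Oprm1-Cre wells, which disagrees with the number on the deposited Slc32a1-Cre table. Columns were therefore matched to samples by title, genotype came from the labels, and 0 columns were left unmatched.

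Wells with at least 1000 genes and 20000 reads on genes were kept: 355 of 384 Oprm1-Cre and 381 of 384 Slc32a1-Cre wells, with 22727 to 581313 and 34513 to 487842 reads. SPN-like nuclei numbered 324 and 340, of which 290 and 189 were D1-like. Nuclei were clustered without RGS genes (log counts per 10000, 2000 variable genes, 30 components, 15 neighbours, Leiden resolution 1, seed 1; leidenalg 0.10.2 and igraph 0.11.9 under Python 3.11.15, with scipy 1.17.1, pandas 2.3.3 and numpy 2.4.6, and figures by matplotlib 3.10.9). Classes came from marker lists. An SPN-like cluster needed a mean log2(CPM + 1) of 3 over its markers, another class an excess of 2 over the mean of all nuclei, and an interneuron-like nucleus a mean of 4 on an interneuron list. SPN-like nuclei with a mean of 4 on a list of another class stayed unnamed, a limit set after seeing the clusters. D1 and D2 scores had to differ by more than 2, and 28 SPN-like nuclei lay within 0.5 of that limit. No doublet caller was run, and 21 possible doublets were left out in 1 alternative.

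Reads were summed by plate and class, since each genotype is 1 sample. Ratios added 5 CPM to both levels, which understates those of low genes, and were called beyond 1 on the log2 scale with at least 5 CPM in either sum. Ratio intervals are exact binomial. Named genes were the 7 members, called genes of 3 lists (other RGS genes, R7 partners, G alpha subunits) and the 3 genes most like each member, of which 1 is not reported here. Members and lists were chosen with earlier results of these data known. The call rule was tested on simulated counts.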

Additional observations from a re-analysis of the deposited data

Results flagged for a closer look

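The ratio of D1-like over D2-like nuclei had opposite directions in the 2 plates for 3 members, with counting intervals on either side of no difference. The log2 ratio of Rgs7 was 0.95 in the Oprm1-Cre plate and -0.24 in the Slc32a1-Cre plate, a difference of 1.19. For Rgs2 it was 0.57 and -0.14, a difference of 0.70, and for Rgs14 it was 0.21 and -0.49, also a difference of 0.70. The ratio of Rgs7 in interneuron-like over SPN-like nuclei was 0.26 in the Oprm1-Cre plate and -0.64 in the Slc32a1-Cre plate, a difference of 0.90. None of these 4 differences was tested, since each plate is 1 sample. In the Oprm1-Cre plate the D2-like sum held 23 nuclei and the interneuron-like sum 13, and 1 nucleus held 74% and 79.5% of the Rgs7 reads of those sums. Without the highest nucleus of each class the Rgs7 ratio of interneuron-like over SPN-like nuclei was -1.65 and -1.74, on the same side in both plates, while that of D1-like over D2-like nuclei was 2.37 and -0.14. With the same nuclei left out Rgs2 stood at 1.01 and -0.09 and Rgs14 at 0.36 and -0.64, still on opposite sides.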

How the results depend on the processing

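No paired analysis was possible because no test was run and each genotype is 1 plate whose well positions are not replicate numbers. In D1-like over D2-like nuclei of the Oprm1-Cre plate, 0 members were higher past 2-fold as reported, but 1 was with 1 CPM added in place of 5, 1 with the mean CPM over nuclei and 2 without the highest nucleus of each class. In D2-like nuclei, 2 members were lower in the Oprm1-Cre plate as reported, but 1 (Rgs2, with Rgs7 lost) was with wells of 100000 or more reads, 1 with median-of-ratios scaling and 1 with SPN nuclei that carry other markers kept, the last chosen after seeing the data. The other counts of called members stayed within 1.5 times of those reported under all 11 alternatives, of which the one without cluster 0 was also chosen after seeing the data. The 5 members lower in interneuron-like nuclei ranged from 5 to 7 in both plates, and no ratio past 2-fold changed its direction. Leaving out the highest nucleus moved 26 of 42 ratios beyond their counting interval, and mean CPM over nuclei moved 20 and leaving out cluster 0 moved 18. Directions close to 0 turned for Rgs14 and Rgs20 between the plates in D1-like nuclei, where Rgs14 stood at 0.25 and Rgs20 at 0.27 without cluster 0, and for Rgs7 in interneuron-like nuclei of the Oprm1-Cre plate (-1.65). Thinning to 20000 reads in place of 50000 moved 2 of 42 shares, and wells of 100000 or more reads moved 2 of 42 ratios, beyond their intervals. The 13, 16 and 23 nuclei of the smallest classes limit every value that rests on them, and without animals named no value has a replicate check.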
